A study of Mus with 6 samples.

Results

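Astrocyte identity and metabolic genes were followed in the hippocampus of mice with or without forced swim stress (FSS). The set holds 39 genes listed by name. No measured value decides which genes are in the set, but the list was drawn up with earlier results of these data known. Each was represented by a row of the deposited table that carries only its symbol. Where a gene had several such rows, the brightest on average was used. All 39 genes were found, among 19938 genes that could be named in this way, and 38 of them had a mean level at or above the median of all rows tested. The exception was Chrdl1.

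The mice were C57BL/6JJmsSlc males, 10 to 11 weeks old by the labels. There were 3 control mice without FSS and 3 FSS mice, which swam for 11 min daily on 5 consecutive days in water of 25 °C and 25 cm depth. Hippocampal RNA of each mouse was read on its own 1-colour Affymetrix GeneChip Mouse Gene 1.0 ST array, so the spread within a group is a spread between mice. Levels are log2 values from robust multi-array averaging (RMA), in which a difference of 1 is a doubling. No gene was altered in these mice, and control and FSS mice differed by label only in the swim.

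Astrocytes clear glutamate from the synapse, turn it into glutamine that neurons take up again, buffer potassium, store glycogen and line blood vessels with their endfeet. They are recognised by genes of the cytoskeleton (Gfap), of folate metabolism (Aldh1l1), of glutamate uptake (Slc1a2 and Slc1a3) and of their transcriptional control (Sox9). After injury they become reactive, a state best known for a rise of Gfap and Vim. In the dentate gyrus, radial glia-like neural stem cells share many of these genes, among them Gfap, Hopx, Hes5 and Sox9. In bulk tissue, fewer cells of a type and less RNA per cell cannot be told apart.

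The medians of the 6 arrays lay within 0.032 of each other (log2), and the SD of the levels was 2.22 to 2.27. Genes of hippocampal neurons that were looked up after the other results (Prox1, Zbtb20, Wfs1, Neurod6, Calb1 and Neurod2) had mean levels of 9.95 to 11.75, against a median of 7.68 over all rows. Prox1 was higher in FSS mice by a log2 fold change of 0.15 (limma unadjusted p = 0.015), and for the others the unadjusted p was 0.356 or more. The astrocyte markers Gfap, Aldh1l1, Slc1a2, Slc1a3, S100b, Sox9 and Aldoc were measured in every mouse at 8.55 or more. In limma, 0 of 21789 rows had an adjusted p under 0.05 (the smallest was 0.872), whereas 1121 rows had an unadjusted p under 0.05.

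In FSS mice, 4 of the 39 astrocyte genes were higher and 4 were lower than in control mice at an unadjusted p under 0.05. The higher genes were Slc14a1, Ednrb, Hopx and Gfap, and the lower genes were Htra1, Fgfr3, Aldoc and Glul. None passed after adjustment over all rows, where the adjusted p of the 39 genes ranged from 0.943 to 0.998 in limma. Together the 8 genes are 20.5% of the set, and 5.14% of all rows had such a p. By direction, 10.3% of the set was higher against 2.49% of all rows, and 10.3% was lower against 2.66%. Among rows at or above the median level, which are a closer match for these abundant genes, 3.69% passed, with 2.63% higher and 1.06% lower. When these rows were fitted on their own, 718 of 10895 passed, with 5 astrocyte genes higher and 6 lower. The genes were read in the same 6 mice and are not independent of each other, so these shares carry no test.

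All differences were small. The largest was 0.28 on the log2 scale, a 1.21-fold difference, and 24 of the 39 genes differed by less than 0.1. No astrocyte gene reached a log2 fold change of 0.5 with an unadjusted p under 0.05, the thresholds of the study, which 0.0688% of all rows passed. The median log2 fold change of the set was 0.030, beside 0.0049 over all rows. In the set 26 genes lay above 0 and 13 below, against 11544 above and 10245 below over all rows. The median size of the difference was 0.073, against 0.047 over all rows and 0.036 over rows at or above the median level. Standard errors of the 39 genes were 0.0381 to 0.107.

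**Figure D1:**
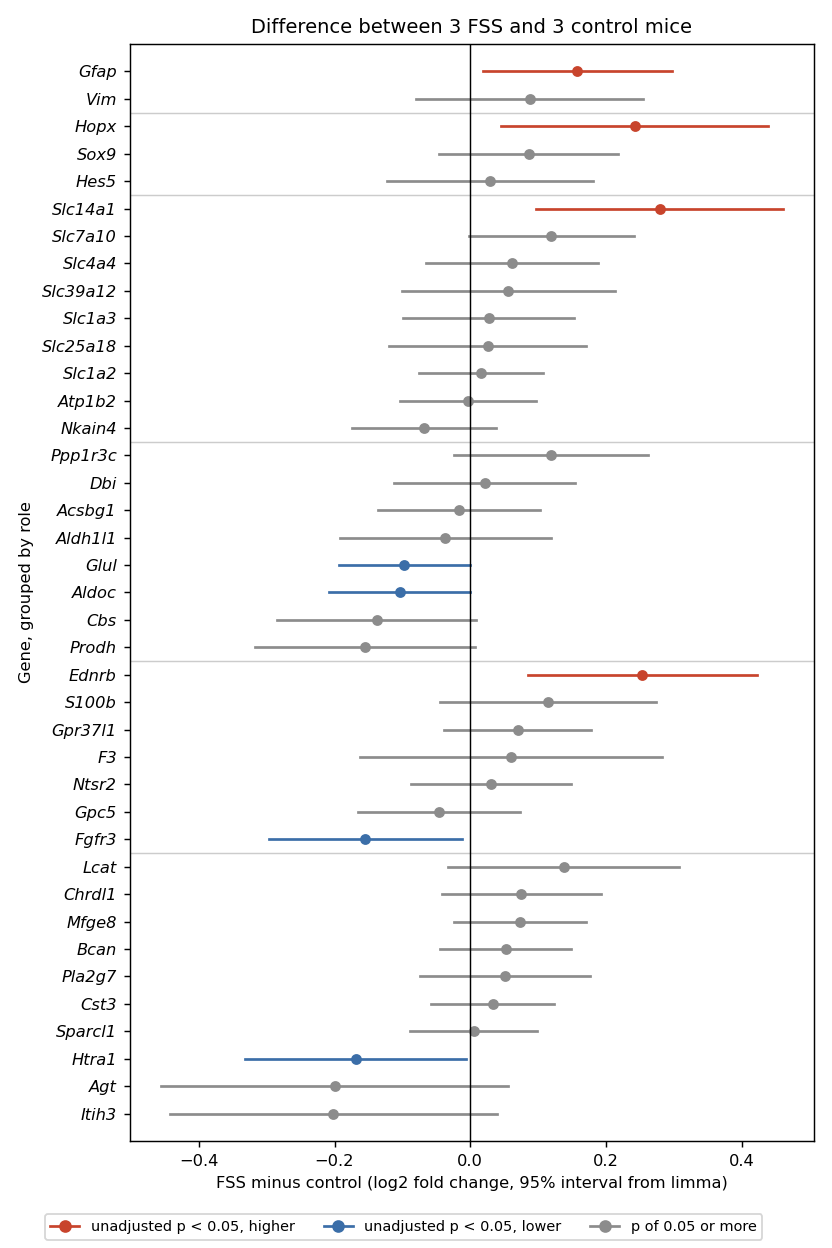
Difference between 3 FSS and 3 control mice (x axis, log2 fold change) for each of the 39 astrocyte genes (y axis, grouped by role). Points are estimates and bars are 95% intervals from limma, red or blue where the unadjusted p was under 0.05, as for Slc14a1 at 0.28 and Htra1 at -0.17.

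Intermediate filaments were examined first, as the usual sign of reactive astrocytes. Gfap, the main filament protein of astrocytes, had levels of 10.17, 9.97 and 10.11 in control mice 1 to 3 and 10.24 in each FSS mouse. The groups were separate, with FSS mice higher, and the FSS mice were closer to each other (SD 0.0033, n = 3) than the control mice (SD 0.10, n = 3). The log2 fold change was 0.16 (standard error 0.0585, unadjusted p = 0.0319, adjusted p = 0.943 from limma), which is 11.5% on the linear scale. With 1 mouse left out, Gfap passed only without control mouse 1 (0.20). Without each of the other 5 mice the unadjusted p was 0.0504 to 0.0803, and without control mouse 2, the lowest mouse, the log2 fold change was 0.10. Vim, the filament protein vimentin, which endothelial and ependymal cells also carry, had levels of 10.78, 10.70 and 10.68 in control mice and 10.84, 10.67 and 10.91 in FSS mice. The groups overlapped, with FSS mouse 2 the lowest of all, and the log2 fold change of 0.088 did not pass (95% interval -0.080 to 0.26). Without FSS mouse 2 it was 0.16 and passed (unadjusted p = 0.0329), and without FSS mouse 3 it was 0.036.

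Among transcriptional regulators, Hopx was higher. Hopx encodes a homeodomain protein without DNA binding of its own that marks quiescent stem cells of the dentate gyrus as well as astrocytes. Its levels were 8.60, 8.31 and 8.52 in control mice and 8.80, 8.69 and 8.66 in FSS mice. All FSS mice were above all control mice, and the lowest value was again that of control mouse 2. For Hopx the log2 fold change was 0.24 (standard error 0.0828, unadjusted p = 0.023, limma adjusted p = 0.943). Omitting control mouse 2 gave 0.16, and omitting FSS mouse 1 gave 0.20, which did not pass. Sox9, a transcription factor required for the astrocyte lineage, had levels of 9.65, 9.68 and 9.55 in control mice and 9.76, 9.64 and 9.72 in FSS mice. The groups overlapped, and the log2 fold change of 0.086 did not pass (95% interval -0.046 to 0.22). For Hes5, a target of Notch signalling, the log2 fold change was 0.029.

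Of 9 transporters and pump subunits, 1 was higher, none was lower and 8 did not pass. Over all rows, 2.49% were called higher and 2.66% lower. Slc14a1, the urea transporter UT-B, had the largest difference of the set. Its levels were 9.53, 9.26 and 9.41 in control mice and 9.66, 9.76 and 9.62 in FSS mice. There was no overlap, and the gap between control mouse 1 and FSS mouse 3 was the narrowest. For Slc14a1 the log2 fold change was 0.28 (standard error 0.0767, unadjusted p = 0.00871, limma adjusted p = 0.943). It stayed between 0.21 and 0.34 when each mouse was left out in turn, with an unadjusted p under 0.05 in each of these 6 fits.

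Slc7a10, a transporter of serine, glycine and other small neutral amino acids, had levels of 9.33, 9.24 and 9.36 in control mice and 9.45, 9.46 and 9.38 in FSS mice. The groups did not overlap, and the log2 fold change of 0.12 lay just outside the threshold (unadjusted p = 0.0524, 95% interval -0.0017 to 0.24). Nkain4, which encodes a partner of the sodium pump, was the opposite case. Control mice had 9.39, 9.31 and 9.31 and FSS mice 9.29, 9.23 and 9.28, so that every FSS mouse was below every control mouse. The log2 fold change was -0.068 and did not pass (unadjusted p = 0.17).

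Neither of the main glutamate transporters passed the test. Slc1a2 (GLT-1), which takes up most synaptic glutamate in the forebrain, had levels of 12.75, 12.78 and 12.77 in control mice and 12.80, 12.78 and 12.77 in FSS mice. Its log2 fold change was 0.016, with a 95% interval from -0.076 to 0.11. Slc1a3 (GLAST), the second astrocytic glutamate transporter, had levels of 11.37, 11.34 and 11.30 in control mice and 11.43, 11.39 and 11.28 in FSS mice. FSS mouse 3 was the lowest and FSS mouse 1 the highest of the 6, and the log2 fold change was 0.027 (95% interval -0.099 to 0.15), which turned to -0.0083 after quantile normalization of the deposited values. For the remaining transporters and subunits the log2 fold change was 0.062 for the bicarbonate cotransporter Slc4a4, 0.056 for the zinc transporter Slc39a12, 0.026 for the mitochondrial glutamate carrier Slc25a18 and -0.0028 for Atp1b2, a subunit of the sodium pump. None of these passed, and in each of them the groups overlapped.

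Of 8 metabolic enzymes and their regulators, 2 were lower, none was higher and 6 did not pass. Glul, glutamine synthetase, makes glutamine from the glutamate that astrocytes take up. Its levels were 12.86, 12.91 and 12.90 in control mice and 12.79, 12.77 and 12.81 in FSS mice. All control mice were above all FSS mice. For Glul the log2 fold change was -0.097 (standard error 0.0404, unadjusted p = 0.0483, limma adjusted p = 0.943), or 6.51% below control on the linear scale. A second row for Glul had the same order of groups, with a log2 fold change of -0.064 that did not pass (unadjusted p = 0.173).

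Aldoc, aldolase C, is the glycolytic aldolase of the brain and is much more abundant in astrocytes than in neurons. Control mice had levels of 12.76, 12.80 and 12.77 and FSS mice 12.69, 12.62 and 12.70. The groups did not overlap, and the log2 fold change was -0.10 (standard error 0.0438, unadjusted p = 0.0497, limma adjusted p = 0.943). Glul and Aldoc lay just inside the threshold, and neither passed when any of the 6 mice was left out.

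Prodh, proline dehydrogenase, and Cbs, cystathionine beta-synthase, came next with log2 fold changes of -0.16 (unadjusted p = 0.0573) and -0.14 (unadjusted p = 0.0611), and for both genes the groups overlapped. Ppp1r3c, which targets a phosphatase to glycogen, went the other way with a log2 fold change of 0.12 (unadjusted p = 0.088). Aldh1l1, the folate enzyme that is used most widely to define astrocytes, had levels of 8.58, 8.60 and 8.77 in control mice and 8.64, 8.55 and 8.65 in FSS mice. These overlapped, and the log2 fold change was -0.037 (95% interval -0.19 to 0.12). The acyl-CoA synthetase Acsbg1 differed by -0.017 and the acyl-CoA binding protein Dbi by 0.021. The median of the 8 genes was -0.067, the lowest of the 6 role groups, and 6 of the 8 lay below 0. Of all 21789 rows, 10245 lay below 0 and 2.66% were called lower. The role groups were not tested against each other.

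Of 7 receptors and signalling proteins, Ednrb was higher, Fgfr3 was lower and 5 did not pass, beside 2.49% of all rows higher and 2.66% lower. Ednrb, the endothelin receptor type B, is carried by astrocytes and by endothelium. It had levels of 9.71, 9.54 and 9.63 in control mice and 9.97, 9.91 and 9.77 in FSS mice. The groups did not overlap, and the log2 fold change was 0.25 (standard error 0.0709, unadjusted p = 0.00944, limma adjusted p = 0.943). It ranged from 0.21 to 0.31 without each mouse and passed in all 6 of these fits. Fgfr3, a receptor of fibroblast growth factors, had levels of 9.86, 10.07 and 9.99 in control mice and 9.82, 9.82 and 9.83 in FSS mice. All control mice were above all FSS mice, but control mouse 1 only narrowly so. Its log2 fold change was -0.15 (standard error 0.0601, unadjusted p = 0.0379, limma adjusted p = 0.943). Omitting control mouse 1 gave -0.21, the only fit with a mouse left out in which it passed, and omitting control mouse 2 gave -0.11.

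S100b, a calcium-binding protein of astrocytes that some oligodendrocytes share, had levels of 8.95, 8.78 and 8.95 in control mice and 9.10, 8.96 and 8.97 in FSS mice. There was no overlap, although control mice 1 and 3 and FSS mouse 2 were nearly level. Its log2 fold change of 0.12 did not pass (unadjusted p = 0.13). For the orphan receptor Gpr37l1 it was 0.070, for tissue factor (F3) 0.059, for the neurotensin receptor Ntsr2 0.030 and for the glypican Gpc5 -0.046. None of these passed, and all had overlapping groups.

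Of 10 secreted and matrix proteins, Htra1 was lower and 9 did not pass, beside 2.49% of all rows higher and 2.66% lower. Htra1 encodes a secreted serine protease. Its levels were 10.16, 10.33 and 10.35 in control mice and 10.09, 10.05 and 10.19 in FSS mice. This was the only called gene whose groups overlapped, since FSS mouse 3 lay above control mouse 1. The log2 fold change was -0.17 (standard error 0.0686, unadjusted p = 0.044, limma adjusted p = 0.943).

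The lowest estimates of the set belonged to Itih3, an inhibitor heavy chain that binds hyaluronan, and Agt, angiotensinogen. Itih3 had levels of 8.003, 8.35 and 8.001 in control mice and 7.91, 7.84 and 7.99 in FSS mice. All FSS mice were lower, yet the log2 fold change of -0.20 did not pass (unadjusted p = 0.088) and was -0.087 without control mouse 2. Agt had levels of 9.90, 10.35 and 10.15 in control mice and 9.94, 9.93 and 9.92 in FSS mice. Control mouse 1 was below all FSS mice and control mouse 2 far above them, and the log2 fold change of -0.20 did not pass (unadjusted p = 0.106). Omitting control mouse 1 gave -0.32 (unadjusted p = 0.00469), and omitting control mouse 2 gave -0.091. Agt had the largest standard error of the set (0.107), and its SD was 0.23 in control mice and 0.0080 in FSS mice (n = 3 each).

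A further 3 secreted proteins had groups without overlap and FSS mice above, as did 6.02% of all rows. Cst3, cystatin C, which microglia also make in quantity, had levels of 13.51, 13.49 and 13.50 in control mice and 13.54, 13.53 and 13.53 in FSS mice, a log2 fold change of 0.033 (unadjusted p = 0.419). For the proteoglycan brevican (Bcan) the levels were 10.36, 10.42 and 10.38 in control mice and 10.46, 10.43 and 10.43 in FSS mice, a log2 fold change of 0.052 (unadjusted p = 0.24). Mfge8, which bridges phosphatidylserine to phagocytes, had levels of 10.30, 10.33 and 10.31 in control mice and 10.41, 10.39 and 10.35 in FSS mice, a log2 fold change of 0.073 (unadjusted p = 0.119). None passed in the limma fit used here, although the groups were separate. Cst3 and Mfge8 did pass the unadjusted threshold in the methods' t-test, which takes each gene alone, and Mfge8 also in limma with an intensity trend (unadjusted p = 0.0481). The remaining secreted proteins overlapped between groups. Their log2 fold changes were 0.14 for Lcat, the enzyme that esterifies cholesterol in lipoproteins, 0.075 for the BMP antagonist Chrdl1, 0.052 for the lipoprotein-associated phospholipase Pla2g7 and 0.0050 for the synaptogenic protein hevin (Sparcl1).

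**Figure D2:**
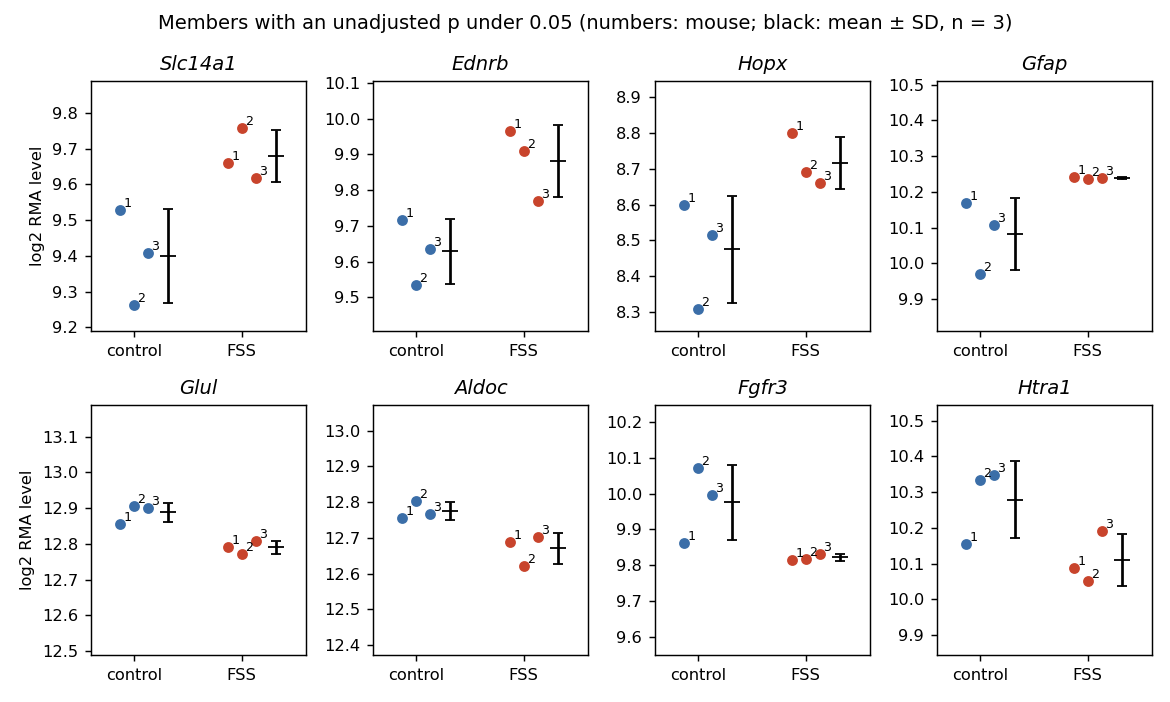
Log2 RMA levels (y axis) of the 8 astrocyte genes with an unadjusted p under 0.05, in control and FSS mice (x axis). Points are mice with their number, black marks are the mean ± SD of 3 mice, and every axis spans 0.7. All 7 genes other than Htra1 have separate groups, and control mouse 2 is the lowest mouse for each of the 4 higher genes.

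Across roles, the groups did not overlap for 14 of the 39 genes, or 35.9%, against 10.3% of all rows and 12.1% of rows at or above the median level. Every FSS mouse was above every control mouse for 9 genes (23.1%, against 6.02% of all rows) and below for 5 genes (12.8%, against 4.25%). With 3 mice in each group, the smallest p of an exact two-sided permutation test is 0.1, so that separate groups alone cannot pass a threshold of 0.05.

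Extreme levels of the set fell on some mice more often than on others. Control mouse 2 had the lowest level of the 6 mice for 15 of the 39 genes and the highest for 7. It was lowest for all 4 higher genes (Slc14a1, Ednrb, Hopx and Gfap) and highest for 3 of the 4 lower genes (Glul, Aldoc and Fgfr3). Control mouse 3 was highest for Htra1. Separate groups by themselves place such an extreme in a control mouse, so only which control mouse held it was open. How often each mouse was extreme over all rows was not counted. FSS mouse 1 had the highest level for 17 genes and the lowest for 3. The mean deviation of the set from the mean of the 6 mice was -0.023 in control mouse 2 and 0.031 in FSS mouse 1, and between -0.014 and 0.0069 in the other 4 mice.

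**Figure D3:**
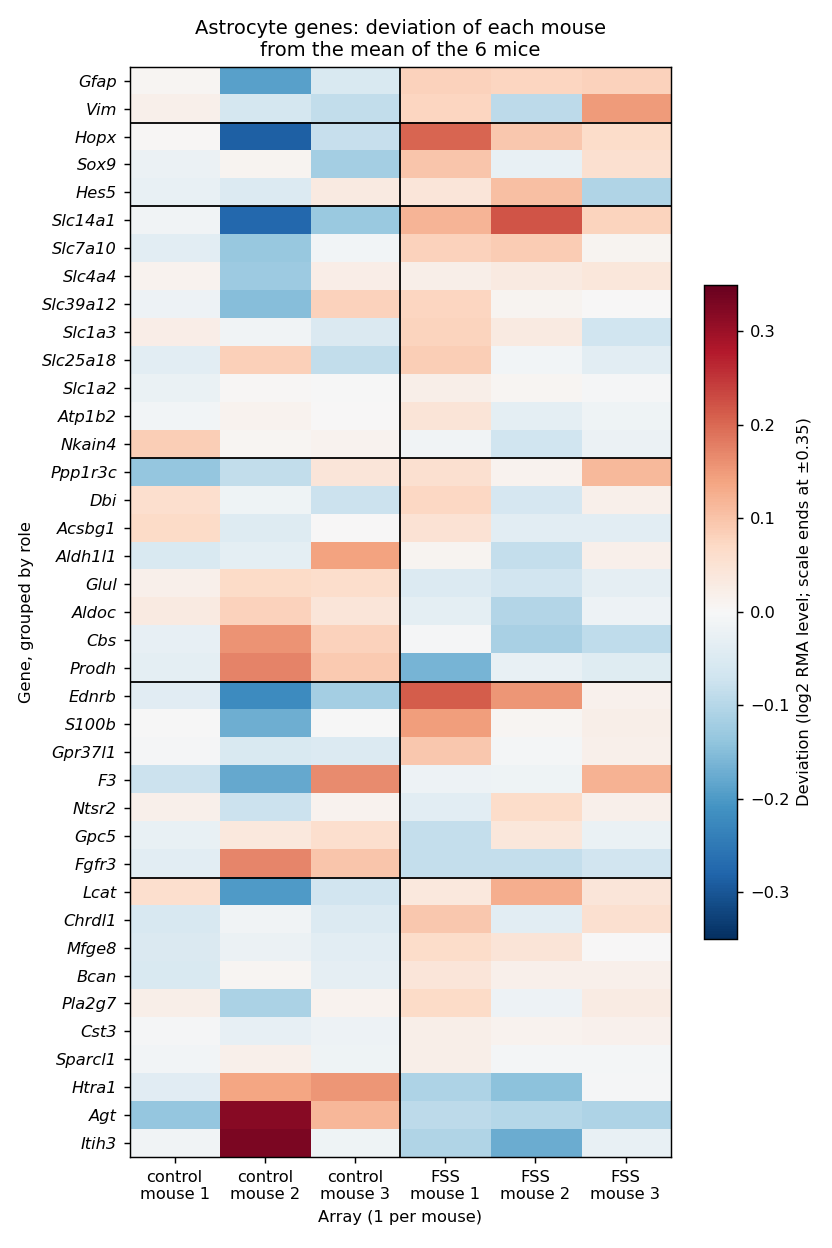
Deviation of each mouse (columns) from the mean of the 6 mice on the log2 scale (colour, red above and blue below) for the 39 astrocyte genes (rows, grouped by role and ordered by their difference). The column of control mouse 2 holds both the deepest blue, at Hopx and Slc14a1, and the deepest red, at Agt and Itih3.

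The calls were then repeated with 1 mouse left out. Over all rows, 1121 were called with all mice. Leaving out control mouse 1, 2 or 3 gave 1208, 826 or 1440 called rows. The counts of astrocyte genes thus moved together with a changing background, whose range over all 6 of these fits is given below. Omitting control mouse 1 or control mouse 3 left 5 higher astrocyte genes, omitting control mouse 2 left 3, omitting FSS mouse 1 left 2, and omitting FSS mouse 2 or FSS mouse 3 left 4. Ednrb and Slc14a1 were among them each time, Hopx each time but without FSS mouse 1, and Gfap only without control mouse 1. The rest of these counts were genes that did not pass with all mice. They were Lcat without control mouse 1, Ppp1r3c and Slc7a10 without control mouse 3, Vim without FSS mouse 2 and Slc7a10 without FSS mouse 3. Lower genes numbered 5 when control mouse 1 was omitted (Fgfr3 and Htra1 with Agt, Cbs and Prodh), 1 when either FSS mouse 1 or FSS mouse 3 was, and 0 for each of the remaining 3 mice. None of the 4 lower genes passed in more than 2 of these 6 fits. The gene that was lower without FSS mouse 1 was Cbs, and without FSS mouse 3 it was Htra1.

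**Figure D4:**
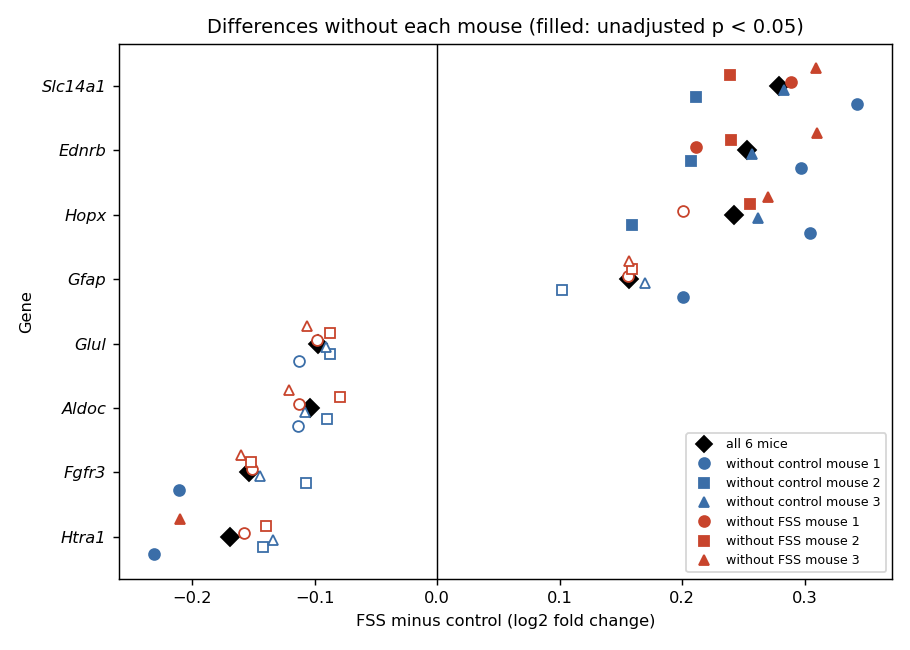
Log2 fold change (x axis) of the 8 astrocyte genes with an unadjusted p under 0.05 (y axis), with all mice (diamonds) and without each mouse in turn, filled where the unadjusted p was under 0.05. All symbols keep the side of 0 that they have with all mice, and those of Slc14a1 and Ednrb are all filled.

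Astrocytic genes outside the set went in both directions as well. Of 30 further genes of astrocytes, 29 were measured, 4 were higher, 3 were lower and 22 did not pass, beside 5.14% of all rows called (2.49% higher and 2.66% lower). The median log2 fold change was 0.0081. Leaving out each mouse gave 2 to 4 higher and 1 to 3 lower genes, with the fewest without FSS mouse 1. The higher genes were Id3, an inhibitor of DNA binding that BMP signalling induces, the water channel Aqp4 (log2 fold change 0.33), the nuclear receptor Rorb (0.14) and the gap junction protein Gja1 (0.11). Id3 had levels of 7.77, 7.75 and 7.84 in control mice and 8.19, 8.13 and 8.12 in FSS mice. The groups were well apart, and the log2 fold change was 0.36 (standard error 0.0458, unadjusted p = 0.000119, limma adjusted p = 0.872). The lower genes were the phospholyase Etnppl (-0.76), the gap junction protein Gjb6 (-0.32) and the syndecan Sdc4 (-0.22), on the same scale.

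A list of genes of reactive astrocytes was taken from general knowledge of injury models. Of 38 such genes 33 were measured, 5 were higher, 1 was lower and 27 did not pass, beside the same 5.14% of all rows. The median log2 fold change was 0.067. The higher genes numbered 2 when any of control mouse 2, control mouse 3 and FSS mouse 3 was omitted and 3 when FSS mouse 2 was, and no gene was lower without control mouse 1 or control mouse 2. Besides Gfap, the higher genes were S100a10, an annexin partner, the membrane protein Emp1 (log2 fold change 0.22), Srgn, the proteoglycan serglycin of immune cells (0.16), and Osmr, the oncostatin M receptor (0.12). S100a10 had levels of 8.97, 9.02 and 9.12 in control mice and 9.29, 9.34 and 9.23 in FSS mice, with separate groups and a log2 fold change of 0.25 (unadjusted p = 0.00319, limma adjusted p = 0.943). Lcn2, the gene of lipocalin 2, was the lower one, with levels of 5.85, 6.03 and 5.74 in control mice and 5.70, 5.68 and 5.60 in FSS mice. Its groups were separate and its log2 fold change was -0.22 (unadjusted p = 0.0287, limma adjusted p = 0.943). All these Lcn2 levels were low, below the median of 7.68 over all rows. No gene of the list was lower with the methods' t-test, or when rows under the median level were left out.

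In the cycle of glutamate and glutamine between astrocytes and neurons, 15 of 18 genes were measured, of which 1 was higher and 2 were lower, beside 5.14% of all rows called. A higher gene was called in only 2 of the 6 fits with a mouse left out, those without control mouse 1 and without FSS mouse 3, and none was lower when control mouse 3 or FSS mouse 1 was omitted. The higher gene was Slc38a3, which exports glutamine from astrocytes, with a log2 fold change of 0.17 (unadjusted p = 0.0213, limma adjusted p = 0.943). Control mice had Slc38a3 levels of 10.24, 10.08 and 10.11 and FSS mice 10.35, 10.35 and 10.26, without overlap. The lower genes were Glul and the mitochondrial alanine transaminase Gpt2, which had a log2 fold change of -0.14 (unadjusted p = 0.0221, limma adjusted p = 0.943). The median of the list was 0.016, and the glutamate transporters lay near it.

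Markers of other cell types were measured in the same mice. Beside their counts stand 2.49% of all rows called higher and 2.66% called lower. Of 9 measured genes of neural stem cells, which share Hopx and Hes5 with the set, 3 were higher and none was lower. These were Hopx, Hes1 and Fabp7, a fatty acid binding protein of radial glia and astrocytes, the latter 2 named after their values were seen. Fabp7 had levels of 11.95, 11.56 and 11.98 in control mice and 12.23, 12.25 and 12.23 in FSS mice, a log2 fold change of 0.41 (unadjusted p = 0.00809, limma adjusted p = 0.943). Summed levels add linear levels, so the brightest genes of a list weigh most. For the stem cell list the sum was 12.35 to 12.63 in control mice and 12.81 to 12.86 in FSS mice (log2). Control mouse 2 was the lowest. Fabp7 was by far the brightest gene of this list, followed by Sox2 at 9.21 to 9.56. The median log2 fold change of the list was 0.11, with 7 genes above 0 and 2 below.

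The same shares of all rows, 2.49% higher and 2.66% lower, stand beside the counts of each list below. For microglia, 2 of 9 markers were higher and none was lower. Their summed level was 12.11 to 12.24 in control mice and 12.23 to 12.29 in FSS mice, again with control mouse 2 lowest. For endothelium, which also carries Ednrb and Vim, 0 of 9 markers passed, and the summed level was 11.46 to 11.61 in control mice and 11.49 to 11.67 in FSS mice. Meningeal and fibroblast genes (1 of 8 higher, none lower) had a summed level of 11.79 to 11.83 in control mice and 11.89 to 11.96 in FSS mice. The brightest of them, Dcn, had a log2 fold change of 0.12 and did not pass (limma unadjusted p = 0.0606). In oligodendrocytes, 0 of 9 markers passed, and the summed level was 14.06 to 14.14 in control mice and 13.85 to 14.19 in FSS mice, the lowest being FSS mouse 2. Of 6 markers of oligodendrocyte precursors 2 were higher, Gpr17 and Olig2, and the summed level was 11.42 to 11.46 in control mice and 11.44 to 11.61 in FSS mice. For mural cells 1 of 7 markers was higher, Acta2, with 11.21 to 11.38 in control mice and 11.37 to 11.53 in FSS mice. For choroid plexus epithelium 1 of 8 was higher, Ttr, with a log2 fold change of 0.95. Its summed level, to which Ttr contributes, was 10.04 to 10.48 in control mice and 10.52 to 10.79 in FSS mice. Of these 8 genes, 4 lay above 0 and 4 below, with a median log2 fold change of -0.0024. For ependyma, 0 of 7 passed, with 9.75 to 9.96 in control mice and 9.71 to 10.06 in FSS mice. These genes too were named after their values were seen. Neuronal markers (0 of 10) had 15.87 to 15.89 in control mice and 15.89 to 15.91 in FSS mice. The summed level of the 39 astrocyte genes was 16.32 in each control mouse and 16.31 to 16.34 in FSS mice. The part of the other cell types in the differences of the astrocyte genes was not tested.

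**Figure D5:**
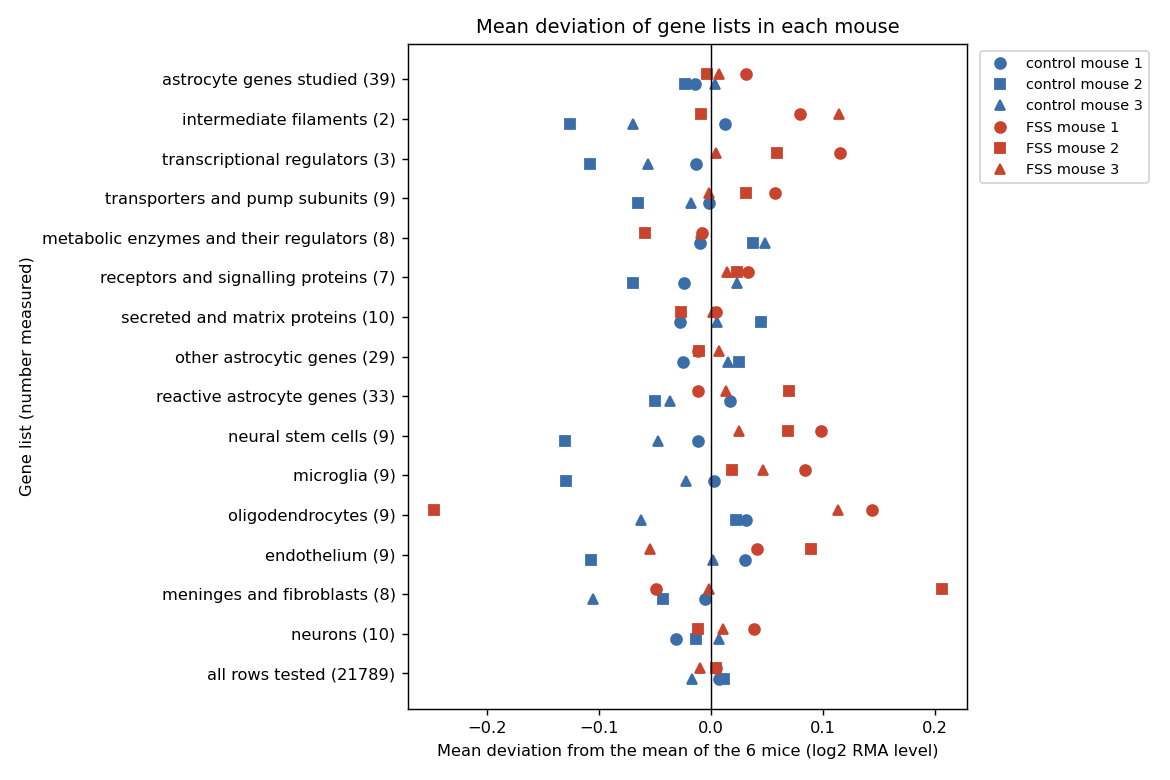
Mean deviation of gene lists (y axis, with the number of measured genes) in each mouse from the mean of the 6 mice (x axis, log2 RMA level), with control mice in blue and FSS mice in red. The 39 astrocyte genes stay between -0.023 and 0.031, a mean in which genes of opposite direction cancel. The microglial and stem cell lists, which hold fewer genes, are lowest in control mouse 2, at -0.13 each. The oligodendrocyte list, also shorter, is lowest in FSS mouse 2, at -0.25.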

How the data were processed

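RNA from the hippocampus of 3 control and 3 FSS mice was measured on Affymetrix Mouse Gene 1.0 ST arrays. The values are log2 levels that the authors obtained from the Affymetrix Expression Console by RMA (background correction, quantile normalization and probe summary), which can hide a shift that all genes share. Scanner values and scan dates were not used here, so no batch was tested. The paper's methods state that the arrays shown were drawn at random from a larger FSS group. Of 28944 rows, 21789 carry exactly 1 gene symbol in the array annotation, 1621 several and 5534 none, and 21698 matched RefSeq genes of GRCm38.p6 by gene ID, with 0 symbols changed.

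FSS minus control was fitted over the 21789 rows by lmFit and eBayes of limma 3.58.1 (R 4.3.3), without covariates. A gene was called at an unadjusted two-sided p under 0.05, and p was adjusted over all rows by Benjamini-Hochberg. The fit was tested on simulated data. The paper's methods name Student's test in general and no test for the arrays in particular. The 39 genes and all lists were chosen with earlier results of these data known. All 39 genes are named, with the value of each mouse for called genes, genes without overlap between groups and 8 common markers (Gfap, Aldh1l1, Slc1a2, Slc1a3, Glul, S100b, Sox9 and Aldoc), and called genes are named from 3 further lists. Vim and Agt were added to those shown by mouse after their values were seen. The alternatives were other variance models, array weights, normalizations, filters, rows, a replicate block and leaving out each mouse. The number of arrays limits the precision.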

Additional observations from a re-analysis of the deposited data

How the results depend on the processing

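With an intensity trend in the prior variance, 7 astrocyte genes were higher and 8 lower, with 1220 of 21789 rows called. With the methods' t-test (equal variance, each gene alone), 4 were higher and 2 lower, with 1089 rows called. Array weights gave 5 higher and 0 lower, with 1447 rows called. Centring the arrays on their median gave 4 higher and 1 lower, with 1094 rows called. When all 28944 rows were fitted, 4 were higher and 2 lower, with 1436 rows called. At the thresholds of the study, a log2 fold change over 0.5 in size with an unadjusted p under 0.05, 0 astrocyte genes were higher and 0 lower, and 15 rows were called in all. The methods' t-test put 8 rows and 0 astrocyte genes past these thresholds, and 0 rows under 0.05 after Benjamini-Hochberg adjustment. Neither total of rows equals the number of up- and downregulated genes that the paper reports at these thresholds. The paper does not say that this test was used for the arrays, and the source of the difference was not tested. Without rows under the median level, where Chrdl1 has no value, 718 of 10895 rows were called, 5 astrocyte genes were higher and 6 lower. With all rows in the fit, 402 of these 10895 rows were called. The log2 fold changes were the same in both fits, but limma shares its variance estimate over the rows fitted. For Gfap the standard error was 0.0585 over 21789 rows and 0.0516 over 10895. The cause of the other changes was not tested. Leaving out each mouse gave 2 to 5 higher and 0 to 5 lower astrocyte genes, 808 to 1656 called rows, and a median log2 fold change of the set of 0.015 to 0.044. Over all the fits that were run, 0 rows passed an adjusted p of 0.05.

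Ednrb and Slc14a1 passed the unadjusted threshold in all 9 other settings, Hopx in 8 (not with the methods' t-test) and Gfap in 7 (not with the methods' t-test or quantile normalization). Fgfr3 passed in 7 of the 9, Htra1 in 6, Aldoc in 5 and Glul in 3. No called gene turned its direction in any setting. Of genes that did not pass, Atp1b2 turned to 0.0040 with array weights and 0.00022 with centred arrays, and quantile normalization turned Slc1a3 to -0.0083, Sparcl1 to -0.013 and Dbi to -0.0088. The log2 fold change ranged over both sides of 0 without each mouse for Aldh1l1 (-0.073 to 0.025), Slc1a3 (-0.0051 to 0.069), Ntsr2 (-0.00011 to 0.056), Acsbg1 (-0.046 to 0.013), Atp1b2 (-0.026 to 0.013), Slc39a12 (-0.0035 to 0.11), Slc25a18 (-0.011 to 0.074), F3 (-0.015 to 0.16), Hes5 (-0.017 to 0.089), Sparcl1 (-0.0041 to 0.015) and Dbi (-0.011 to 0.056).

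The labels number the mice 1 to 3 in both groups without saying what a number shares. Deviations from the group means correlated at -0.048, 0.15 and 0.24 between mice of equal number. Mice numbered 2 and 3 each correlated best with the mouse of their own number. Control mouse 1 correlated best with FSS mouse 2, at 0.13. Since the labels name no pairing, the numbers were not taken to pair the mice. With the replicate block, 4 astrocyte genes were higher, 3 were lower and 1494 rows were called, against 1121 without it. The median log2 fold change stayed at 0.030.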
